A study of Rattus norvegicus with 6 samples.

Results

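The genes described here belong to the contractile machinery of smooth muscle: 35 genes, named by symbol, that encode its filaments, the proteins that anchor them, the transcription factors that switch them on, and the enzymes that set myosin activity. They were chosen by symbol from the 19828 entries of the deposited day 56 table. Of the 35, 33 stood there under the same symbol, Mrtfa stood under its older symbol Mkl1, and Myl6 was read only in an entry shared with Myl6b. The lungs were whole lungs of Sprague-Dawley rats, either wild type (WT) or lacking Ahr (knockout, labelled Ahr-KO). All 6 samples carried the Sugen-Hypoxia treatment and were labelled day 56, and no untreated lung was analysed here. Bulk RNA-seq gave 3 libraries for each genotype, numbered 0, 1 and 2 in the table. The rats' age, the kind of Ahr edit and any pooling of animals were not stated in the labels.

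Smooth muscle contracts when myosin pulls on actin filaments. Calcium and calmodulin activate myosin light chain kinase, which phosphorylates the regulatory light chain, and myosin phosphatase reverses this step unless a ROCK kinase or a phosphatase inhibitor holds it back. Many of the genes involved are driven by serum response factor (SRF) together with its coactivators myocardin and MRTF-A, which act at a DNA element called the CArG box. In the lung these genes mark the walls of vessels and airways, and thickening of the muscular layer of small arteries is a hallmark of pulmonary arterial hypertension. Sugen, a VEGF receptor inhibitor, given together with low oxygen is a rat model of that disease, and AHR, the aryl hydrocarbon receptor, is a transcription factor activated by ligands.

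Promoter sequence was available for 29 of the 35 genes as RefSeq windows on GRCr8, from 250 bases before to 50 after the start site. A CArG box (CC, then a run of A or T, then GG) lay in 3 of the 29 windows (10.3%), beside 1.64% of all 33469 windows of that length. Only exact matches inside the window were counted. Boxes with another base in the run, or farther from the start, were not searched, so a window without a match does not show that a gene lacks the element. The 3 windows with a match are shown because they place the SRF element on named members. These 3 windows belong to Srf itself, the calponin gene Cnn2 and the PDZ-LIM gene Ldb3. The boxes are in capitals and each line is read along the gene's strand.
Srf (GRCr8 chr9:21923983-21924036, plus strand): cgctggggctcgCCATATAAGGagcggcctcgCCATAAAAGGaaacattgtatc
Cnn2 (GRCr8 chr7:10370362-10370395, minus strand): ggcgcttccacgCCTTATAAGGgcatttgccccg
Ldb3 (GRCr8 chr16:9924710-9924743, minus strand): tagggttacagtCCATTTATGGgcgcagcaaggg
The 2 boxes of Srf began 81 and 61 bases before its start, that of Cnn2 71 and that of Ldb3 52 bases before. None of these 3 genes passed the test below (adjusted p = 0.57 for Srf, 0.48 for Cnn2 and 0.89 for Ldb3, limma).

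The core of the AHR recognition element, GCGTG, was searched on both strands (as GCGTG or CACGC). It lay in 17 of the 29 windows (58.6%) and in 29.7% of all windows. The windows of these genes were also richer in G and C, with a median of 60.7% against 51.7% over all windows, and the part of base composition in the difference was not tested. The windows of Synm and Filip1l, which differed between the genotypes, each held 1 match, shown in capitals. That of Synm began 103 bases before the start, and that of Filip1l 4 bases after it.
Synm, the bases before the start (GRCr8 chr1:130773825-130774074, minus strand): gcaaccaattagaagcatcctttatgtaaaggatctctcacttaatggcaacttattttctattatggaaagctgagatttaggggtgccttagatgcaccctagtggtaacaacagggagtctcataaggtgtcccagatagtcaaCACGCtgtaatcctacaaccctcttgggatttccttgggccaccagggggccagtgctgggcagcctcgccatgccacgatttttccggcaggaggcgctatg
Filip1l, around the match (GRCr8 chr11:56646382-56646410, minus strand): ccctcgcgcacaCACGCagatacactccg
A match of these letters is not evidence that a factor binds there. Pdlim3, Myh11, Myl9, Tagln, Lmod1 and Myocd had no window in the table used.

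Each value below is a normalised, estimated read count. Depth was about 12.9 to 23.6 M (mega) reads, lowest in the library numbered 2 of each group. The targeted gene was read first as a check of the labels. Ahr gave values of 2940.0, 2860.4 and 3395 in WT and of 2399, 3923 and 3575 in Ahr-KO. These groups overlapped (log2 0.08, limma adjusted p = 0.81), so the Ahr signal did not tell the genotypes apart. The labels do not say which part of the gene was changed or whether its transcript should be lost, and Ahr-KO below means the libraries labelled so. Cyp1a1, a classical AHR target, did separate them: its 3 WT values were 27085, 23512 and 37694, and its 3 Ahr-KO values were 10.5, 0.83 and 1.36. The 6 defining smooth muscle markers Acta2, Myh11, Cnn1, Tagln, Des and Lmod1 were at 659 or more in every library. The question was whether these genes differ between treated lungs with and without Ahr. Differences were tested with limma on log2(value + 1), with Benjamini-Hochberg adjustment over all 15386 genes that reached a value of 1 in at least 3 libraries, and a gene was called at an adjusted p under 0.05. Over all genes 692 were called higher and 963 lower in Ahr-KO, or 448 and 1314 after scaling to equal library totals.

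Few contraction genes were called. Of the 34 that could be tested, 2 were higher in Ahr-KO (Synm and Pdlim3), 1 was lower (Filip1l) and 31 did not pass. That is 8.82% of the members, beside 10.8% of all tested genes (4.50% higher and 6.26% lower), so the share called was near the background. The median log2 difference of the 34 was 0.03 and that of all tested genes 0.01. The members' median turned to -0.04 after quantile normalisation and to -0.06 with equal library totals. The median of all tested genes was then 0.03 and -0.08, in that order. For scale, the median deviation of the members from their group mean had an SD of 0.17 over the libraries. That is a spread of single libraries, not of the difference between genotypes, so the weight of these shifts was not tested. For 29 of the 34 the 95% interval of the log2 difference lay within a 2-fold change in either direction, and the median standard error was 0.15. In whole lung, fewer cells of a type and less RNA per cell cannot be told apart.

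Synm had the lowest p of all members. Synemin is an intermediate filament protein that links desmin filaments to sites of adhesion. It stood at 5571, 4962 and 4879 in WT (here and below in the order of libraries 0, 1 and 2) and at 8146, 8722 and 8619 in Ahr-KO. The groups did not overlap, and each group was tight. The log2 difference was 0.73 ± 0.09 (SE), or 1.66-fold (limma, adjusted p = 0.0054). This call held under each of the 15 alternative settings, with adjusted p between 0.0056 and 0.034 and a log2 difference between 0.62 and 0.79.

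Pdlim3 encodes a PDZ and LIM domain protein that binds alpha-actinin at actin anchoring sites. Its values were 848, 793 and 536 in WT and 1120.3, 1648 and 1769 in Ahr-KO, so every Ahr-KO library lay above every WT library. Ahr-KO library 0 was the lowest of its group and WT library 2 the lowest of all. Pdlim3 rose 2.08-fold (log2 1.06 ± 0.22, limma adjusted p = 0.024), the one change of at least 2-fold among the tested members. The call was lost without Ahr-KO library 1 (adjusted p = 0.085) or Ahr-KO library 2 (0.10), and with limma lacking the mean-variance trend (0.069).

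Filip1l, which encodes a protein related to a filamin A partner, was the member that fell. It stood at 2243, 1961 and 3044 in WT and at 1353, 1307 and 1361 in Ahr-KO. The 3 Ahr-KO values lay close together below all WT values, while WT library 2 was high. Filip1l fell 1.77-fold (log2 -0.82 ± 0.15, limma adjusted p = 0.017). The call was lost without Ahr-KO library 1 (adjusted p = 0.062) or Ahr-KO library 2 (0.071), and without the trend (0.055).

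**Figure D1:**
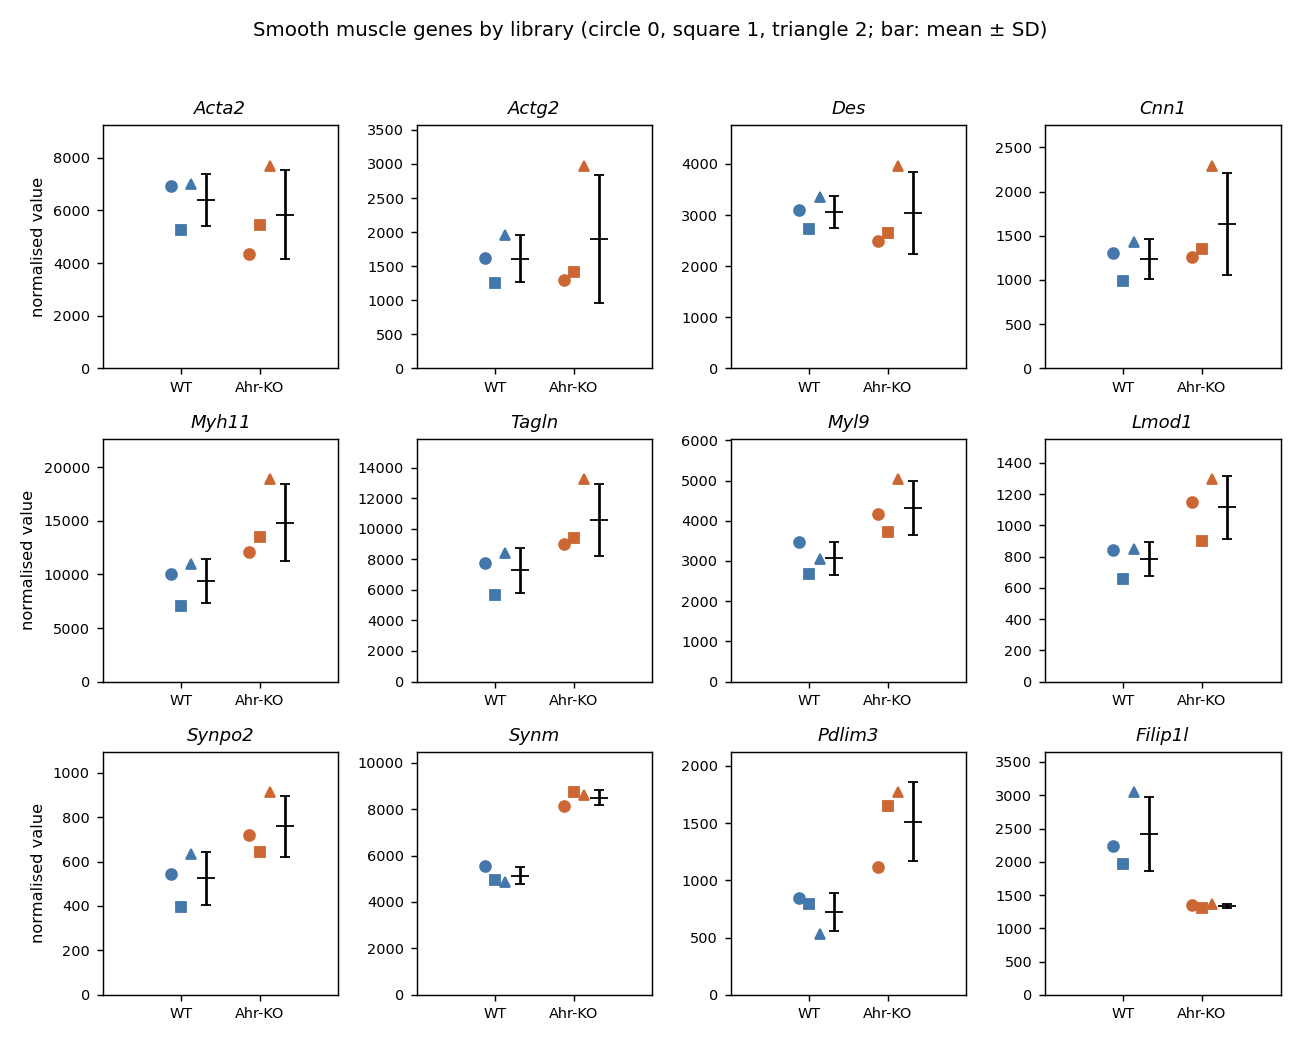
Normalised value (vertical axes, each from 0) of 12 smooth muscle genes in the 3 WT (blue) and 3 Ahr-KO (orange) libraries, with circles, squares and triangles for libraries 0, 1 and 2 and bars for mean ± SD. Synm, Pdlim3 and Filip1l were called. Ahr-KO library 2 was the highest of its group for Acta2, Actg2, Des, Cnn1, Myh11, Tagln, Myl9, Lmod1, Synpo2, Pdlim3 and Filip1l, but not Synm.

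Of the 7 actin, myosin and tropomyosin genes, 0 passed the limma test, 2 had an unadjusted p under 0.05, and 0 passed with limma-voom. In 2 of them the genotypes did not overlap. Over all tested genes 10.8% were called, 27.9% had an unadjusted p under 0.05 and 34.3% did not overlap. With 7 genes these counts do not set the block apart. Myh11, the smooth muscle myosin heavy chain, stood at 10024.5, 7077 and 11004 in WT and at 12137, 13504 and 18910 in Ahr-KO. Its lowest Ahr-KO library lay above its highest WT library, with a log2 difference of 0.66 (95% interval 0.18 to 1.15, limma adjusted p = 0.085). Myl9, the regulatory light chain that the kinase phosphorylates, was at 3479, 2676 and 3037 against 4172, 3728 and 5038. For Myl9 too every Ahr-KO value was higher than every WT value (log2 0.49, 95% interval 0.17 to 0.81, limma adjusted p = 0.063).

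Acta2, the alpha-actin by which smooth muscle is most often recognised, did not share this order. It stood at 6948, 5249 and 6997 in WT and at 4363, 5464 and 7702 in Ahr-KO. The lowest and the highest value both came from Ahr-KO libraries, and the log2 difference was -0.16 (95% interval -0.64 to 0.32, limma adjusted p = 0.67). Leaving out Ahr-KO library 0 gave 0.03, and leaving out Ahr-KO library 2 gave -0.38. Actg2, the gamma-actin of smooth muscle, was at 1617, 1256.5 and 1956 in WT and at 1296, 1415 and 2974 in Ahr-KO. The groups overlapped, with Ahr-KO library 2 far above the other libraries, and the log2 difference of 0.15 (limma adjusted p = 0.79) turned to -0.23 without that library. Reads of the actin genes may be shared between close relatives, so single levels are uncertain.

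The tropomyosins, which lie along actin and govern access of myosin, had positive differences that did not pass. Tpm1 ranged from 6649 to 7502 in WT and from 7296 to 9192 in Ahr-KO (log2 0.24, 95% interval -0.02 to 0.49). Tpm2 ranged from 2676 to 3700 and from 3574 to 5438 (log2 0.38, 95% interval -0.04 to 0.81). Both pairs of groups overlapped. The entry shared by Myl6, the essential light chain, and Myl6b ranged from 15921 to 17168 in WT and from 16978 to 19224 in Ahr-KO (log2 0.13, or -0.04 after quantile normalisation).

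Of the 7 genes for proteins that sit on actin filaments, 0 were called. Tagln and Lmod1 lay apart between the genotypes and the others did not. Over all tested genes 10.8% were called and 34.3% did not overlap, so these counts do not set the block apart. Tagln, which encodes transgelin (SM22), stood at 7753, 5634 and 8427 in WT and at 9007, 9398 and 13246 in Ahr-KO. The groups did not overlap, and the log2 difference was 0.54 (95% interval 0.09 to 0.98, limma adjusted p = 0.12). Lmod1, a leiomodin that nucleates actin filaments, was at 844, 659 and 848 against 1151, 898 and 1296. Again the groups were apart (log2 0.50, 95% interval 0.13 to 0.88, limma adjusted p = 0.089).

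Cnn1, the calponin of differentiated smooth muscle, stood at 1303, 988 and 1427 in WT and at 1256, 1346 and 2292 in Ahr-KO. Only Ahr-KO library 2 exceeded the WT range, and the log2 difference of 0.36 (limma adjusted p = 0.37) was 0.09 without that library. Cnn2, the more widely expressed calponin, ranged from 967 to 1139 in WT and from 812 to 1099.5 in Ahr-KO (log2 -0.16). Cald1, caldesmon, which restrains actomyosin, ranged from 2892 to 3722 and from 2699.7 to 3079.5 (log2 -0.16). Smtn, smoothelin, ranged from 827 to 949 and from 708 to 1048 (log2 -0.05), and its relative Smtnl2 from 277 to 535 and from 295 to 419.8 (log2 -0.23). These 4 genes did not pass, with adjusted p from 0.39 to 0.86 (limma).

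The 10 attachment proteins, the largest block, held all 3 called genes and the widest range of differences, from -0.82 to 1.06. Over all tested genes 10.8% were called, and whether this block differs from the others was not tested. Synpo2, synaptopodin-2, an actin-bundling protein of muscle, stood at 544, 394 and 634 in WT and at 721, 645 and 911 in Ahr-KO. Every Ahr-KO value was above the WT values, although library 1 of Ahr-KO exceeded WT library 2 by little (log2 0.55, 95% interval 0.09 to 1.00, limma adjusted p = 0.12). Des, desmin, the filament partner of synemin, stood at 3092, 2736 and 3347 in WT and at 2498, 2651 and 3966 in Ahr-KO. In contrast to Synm, the Des groups overlapped (log2 -0.04, 95% interval -0.44 to 0.37, limma adjusted p = 0.92).

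Actn1, the alpha-actinin that crosslinks actin, ranged from 2179 to 2708 in WT and from 1743 to 2068 in Ahr-KO. Its Ahr-KO values were all lower, without passing the test (log2 -0.29, 95% interval -0.56 to -0.02, limma adjusted p = 0.15). Pdlim7, a second PDZ-LIM gene, ranged from 856 to 985 and from 635 to 891 (log2 -0.33), opposite in sign to Pdlim3 and with overlapping groups (limma adjusted p = 0.17). Csrp1, a LIM protein of smooth muscle, ranged from 21250.2 to 26268 and from 25564 to 32624 (log2 0.27). Flna, the actin crosslinker filamin A, ranged from 21916 to 28852 and from 22759 to 30558 (log2 0.05, and below 0 when quantile normalised or scaled to equal totals).

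Ldb3, an alpha-actinin partner of muscle Z-discs, stood at 164, 204 and 418 in WT and at 231, 225 and 226 in Ahr-KO. WT library 2 stood alone and the other WT libraries lay below all 3 Ahr-KO libraries (log2 -0.08, limma adjusted p = 0.89, and 0.31 without WT library 2). Ldb3 is also a gene of heart muscle, and 19 heart muscle markers were summed for each library. Their sum was 1179, 2774 and 9221 in WT, ranked as Ldb3 was. In Ahr-KO the sum was 3450.2, 3175 and 2089.9, an order that the nearly equal Ldb3 values did not share. Myh6, the atrial myosin heavy chain, ranged from 29 to 1985 in WT and was listed at 0 in Ahr-KO library 2. None of the 16 tested heart markers was called (limma, lowest adjusted p = 0.29, with 0 at an unadjusted p under 0.05 and 0 called by limma-voom). Synm and Pdlim3 had their lowest value in WT library 2, where the heart marker sum was highest. The part of heart muscle in the Ldb3 values was not tested.

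**Figure D2:**
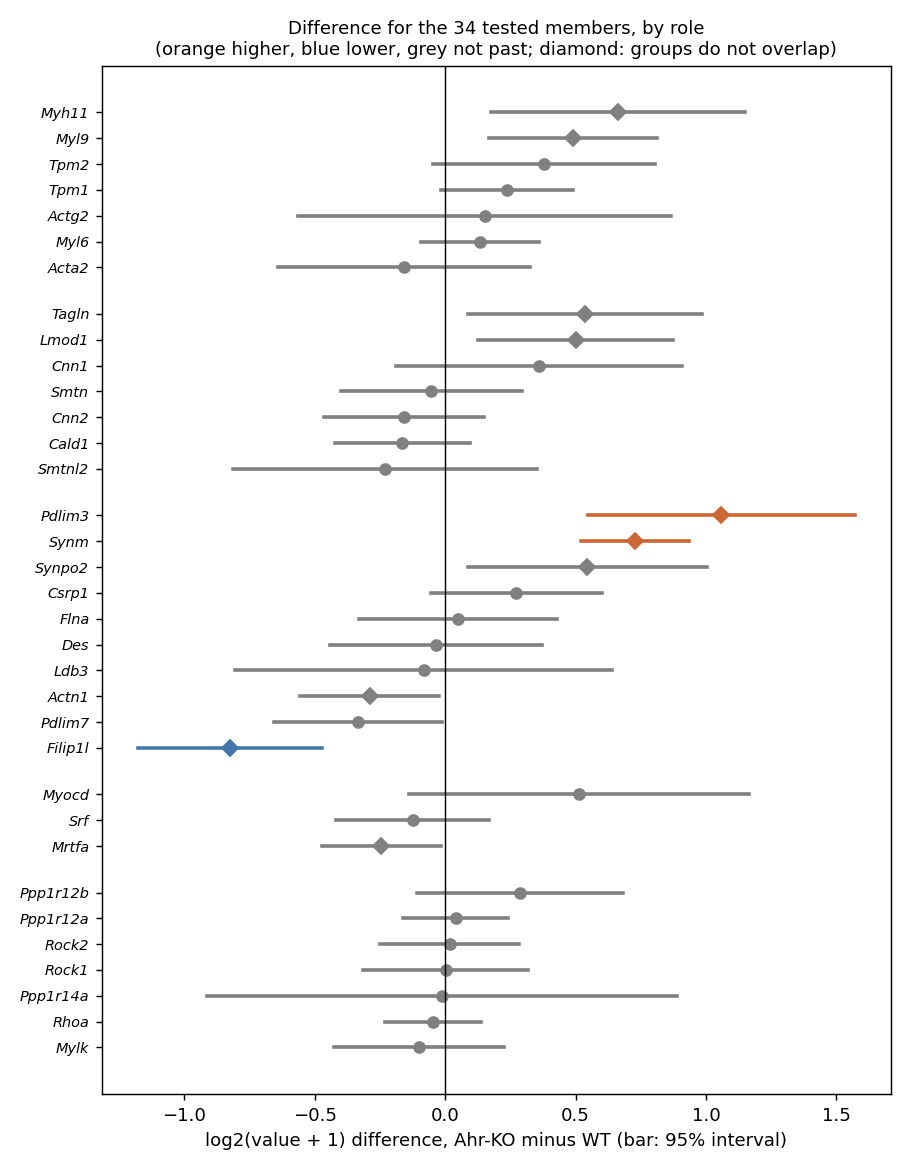
Log2(value + 1) difference between Ahr-KO and WT (horizontal axis, points with 95% intervals) for the 34 tested genes, in 5 blocks by role, with called genes in orange (higher) or blue (lower) and diamonds where the groups did not overlap. Pdlim3 (1.06) and Synm (0.73) lay highest among the attachment proteins and Filip1l (-0.82) lowest, while the block of kinase, phosphatase and GTPase genes lay around 0.

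None of the 3 transcription factors passed the limma test (1 at an unadjusted p under 0.05, 0 called by limma-voom). With 10.8% of all tested genes called, so few genes could hold no call in any block. Myocd, myocardin, the muscle-restricted SRF coactivator, stood at 61, 41.9 and 78.3 in WT and at 70.9, 79.3 and 105 in Ahr-KO. The groups overlapped, and the log2 difference of 0.51 had a wide interval (95% interval -0.14 to 1.17, limma adjusted p = 0.28). Myocd was the tested member with the fewest reads, about 51 in WT library 1. Srf ranged from 1792 to 2137 in WT and from 1543 to 2007 in Ahr-KO (log2 -0.12). Mrtfa, the coactivator released when actin polymerises, stood at 860, 880 and 817 in WT and at 753, 657 and 750 in Ahr-KO. Its Ahr-KO values were all lower, by a small step (log2 -0.24, 95% interval -0.47 to -0.02, limma adjusted p = 0.15).

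The 7 genes that set myosin phosphorylation all overlapped between genotypes, with log2 differences from -0.10 to 0.29. By limma 0 were called, 0 had an unadjusted p under 0.05, and 0 were called by limma-voom. Over all tested genes 10.8% were called, 27.9% had an unadjusted p under 0.05 and 34.3% did not overlap. These 7 genes are too few to read a lack of calls as a trait of the block. Mylk, the myosin light chain kinase, was at 13008, 8980.3 and 9648 in WT and at 9609, 9630 and 9855 in Ahr-KO. WT library 0 was high and the other 5 libraries were close together (log2 -0.10, limma adjusted p = 0.69). Rhoa, the GTPase that activates the ROCK kinases, ranged from 5432 to 5881 in WT and from 5453 to 5573 in Ahr-KO, and its 95% interval of -0.23 to 0.14 was the narrowest of the members. The kinases Rock1 (1686 to 2405 and 1872 to 2141) and Rock2 (4151 to 5305 and 4259 to 4814) had log2 differences of 0.00 and 0.02. Both signs turned under quantile normalisation and under scaling to equal totals.

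The subunits that target myosin phosphatase to myosin also overlapped between genotypes. Ppp1r12a ranged from 1539 to 1736 in WT and from 1615 to 1729.7 in Ahr-KO (log2 0.04, and -0.05 with equal library totals), and Ppp1r12b from 1649.9 to 2437 and from 2070.5 to 2891 (log2 0.29, 95% interval -0.11 to 0.68). Ppp1r14a encodes CPI-17, the inhibitor of this phosphatase, and stood at 1457, 1330.4 and 497 in WT and at 742, 1070.2 and 1187 in Ahr-KO. WT library 2 was the lowest, and the 95% interval of -0.91 to 0.89 around -0.01 was the widest of the members. Sost, the WNT antagonist sclerostin, was too low to test: it was listed at 0 in 4 libraries and at 1.40 (WT) and 1.36 (Ahr-KO) in the libraries numbered 2, about 1 read each.

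Groups that do not overlap were counted as well, without regard to the test. For 10 of the 34 members (29.4%) all values of one genotype lay on one side of the other, beside 34.3% of all tested genes. In 7 of them Ahr-KO was above (20.6%, background 17.0%), namely Myh11, Myl9, Tagln, Lmod1, Synpo2, Synm and Pdlim3. The 3 with Ahr-KO below (8.82%, background 17.4%) were Filip1l, Actn1 and Mrtfa. At an unadjusted p under 0.05 there were 11 members (32.4%, background 27.9%), 7 higher (background 13.4%) and 4 lower (background 14.6%). These counts describe the genes and are no test of them as a set. They use the values as deposited, for members and background alike. The values of a library totalled 17.8 to 18.0 M in WT and 18.9 to 19.3 M in Ahr-KO. Non-overlap was not counted again after scaling to equal totals, where narrow gaps with Ahr-KO above could close.

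The members also differed between libraries of one genotype. Ahr-KO library 2 was the highest of its group for 26 of the 34 members, beside 36.5% of all tested genes, and for each of the 6 smooth muscle markers. WT library 1 was the lowest of its group for 17 members (28.3% of all tested genes) and again for each of the 6 markers. The median deviation of the members from their group mean was 0.23 in Ahr-KO library 2, -0.15 in Ahr-KO library 0, 0.13 in WT library 2 and -0.10 in WT library 1 (log2). Without Ahr-KO library 2 the members' median difference was -0.02, and without WT library 2 it was 0.14. Synm and Filip1l varied little across the Ahr-KO libraries, unlike Myh11, Actg2 or Cnn1.

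**Figure D3:**
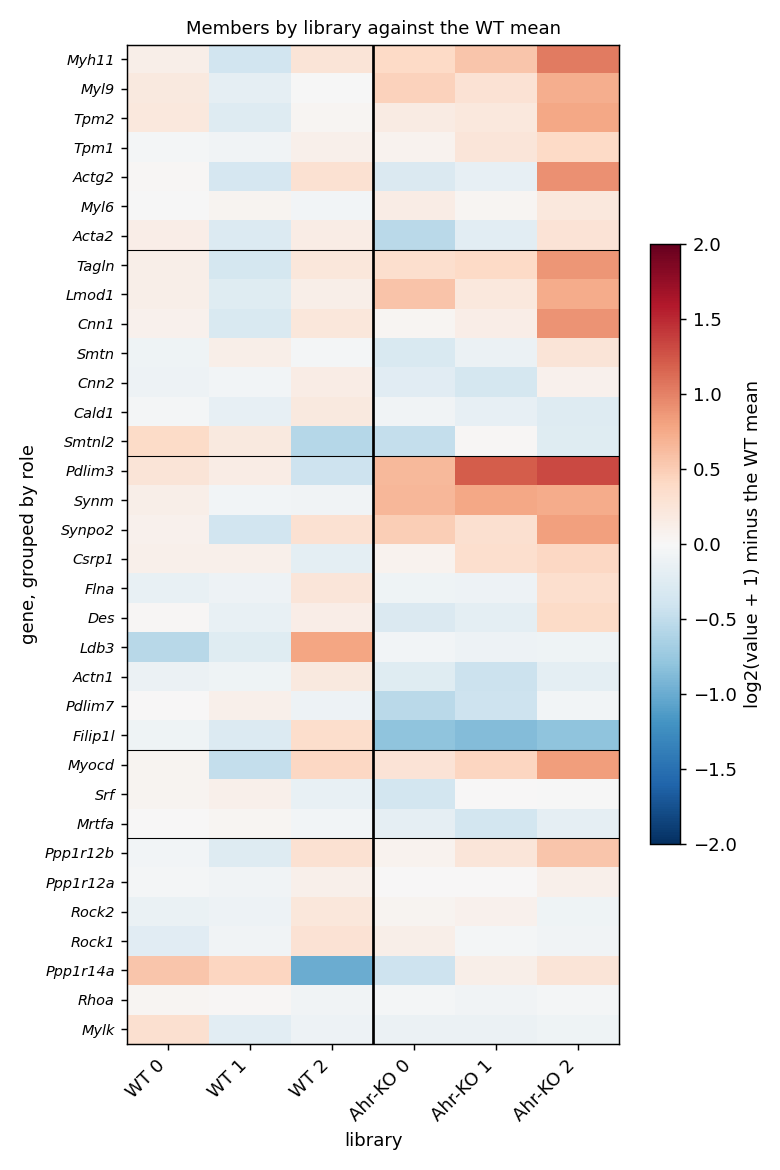
Log2(value + 1) minus the WT mean (colour, red higher and blue lower) for the 34 tested genes (rows, by role) in the 6 libraries (columns). Ahr-KO library 2 is the reddest column for most filament genes, Synm and Pdlim3 are red in all 3 Ahr-KO libraries, Filip1l is blue in all 3, and Acta2 is blue in Ahr-KO libraries 0 and 1.

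Ratios within a library cancel any factor that multiplies all its genes. They were taken after the values had been seen and are given as a description. The 11 genes set against Acta2 include all 7 members with Ahr-KO above WT and none of the 3 with Ahr-KO below. Acta2 itself had a log2 difference of -0.16, so higher mean ratios of those 7 follow from their own values. Ratios to Acta2 were not taken over all genes, so no background share is given. The log2 ratio of Myh11 to Acta2 was 0.53, 0.43 and 0.65 in WT and 1.48, 1.31 and 1.30 in Ahr-KO. The ratio was therefore higher in every Ahr-KO library, by 0.82 on average (SD 0.11 in WT and 0.10 in Ahr-KO, n = 3 each). Tagln to Acta2 differed by 0.69, with 0.16, 0.10 and 0.27 in WT and 1.05, 0.78 and 0.78 in Ahr-KO. Relative to Acta2, Tpm2 differed by 0.54 and Cnn1 by 0.52, again with no overlap, although neither gene separated the groups by its own value.

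Not all muscle genes stood apart from Acta2. The log2 ratio of Des to Acta2 was -1.17, -0.94 and -1.06 in WT and -0.80, -1.04 and -0.96 in Ahr-KO, so these ratios overlapped. Actg2 to Acta2 overlapped as well, with a difference of 0.31. With Des as the reference, Myh11 was higher in each Ahr-KO library, at 1.70, 1.37 and 1.72 in WT and 2.28, 2.35 and 2.25 in Ahr-KO. All ratios to Acta2 share their denominator, so the low Acta2 value of Ahr-KO library 0 raises each of them in that library. The labels do not say which muscle bed, airway or vessel, the RNA came from.

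**Figure D4:**
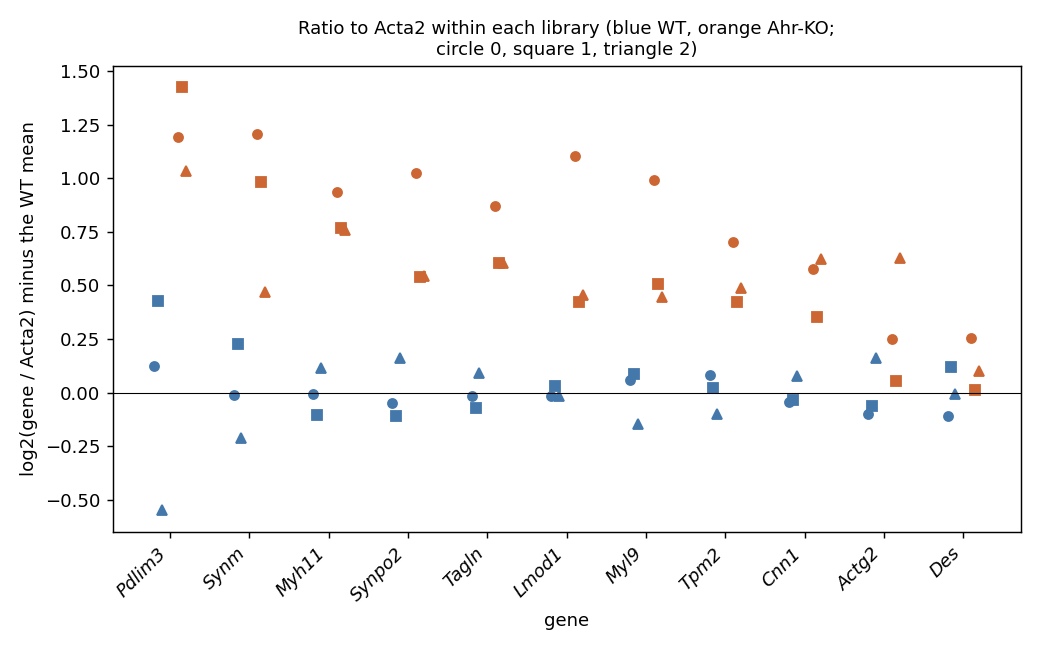
Log2 ratio of 11 smooth muscle genes to Acta2 within each library, minus the WT mean of that ratio (vertical axis), for WT (blue) and Ahr-KO (orange) libraries 0 (circle), 1 (square) and 2 (triangle). Ratios of 9 genes lie higher in all Ahr-KO libraries than in all WT libraries, and those of Actg2 and Des overlap. The 11 genes were picked after the values were seen and include all 7 members with Ahr-KO above WT.

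Non-muscle relatives of the contractile proteins were compared with a fixed list of 17 genes. Of these 16 were tested, 1 was higher, 3 were lower and 12 did not pass (median log2 -0.02, beside 0.01 over all tested genes). Over all tested genes 4.50% were called higher and 6.26% lower, and these relatives were not tested as a set. Myh10, the non-muscle myosin IIB heavy chain, stood at 8232, 6182 and 6717 in WT and at 3243, 3522 and 3762 in Ahr-KO. Every Ahr-KO library was lower, and Myh10 fell 2.00-fold (log2 -0.997 ± 0.12, limma adjusted p = 0.0054). The log2 ratio of Myh11 to Myh10 was 0.28, 0.20 and 0.71 in WT and 1.90, 1.94 and 2.33 in Ahr-KO, a difference of 1.66. Every Ahr-KO value of Myh11 lay above WT and every one of Myh10 below, so a higher ratio follows from their own values. Myh14, the non-muscle myosin IIC heavy chain found in epithelia, rose from 9307 ± 1110 to 18126 ± 191 (SD, n = 3; limma adjusted p = 0.0043). The ratio of Myh11 to Myh14, which rose where Myh10 fell, was not taken. The cytoplasmic gamma-actin gene Actg1 and the actin-binding gene Lima1 fell 1.42-fold and 1.61-fold (limma adjusted p = 0.027 and 0.011). The calls of Myh10, Myh14 and Lima1 held under all 15 alternative settings, while that of Actg1 was lost without any 1 library other than WT library 2 (highest adjusted p = 0.082), and also lacking the trend (0.069) or with the library number as a block (0.062).

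Other regulators of contraction were covered by a list of 34 genes. Of 33 tested, 1 was higher, 5 were lower and 27 did not pass (median log2 -0.12). Over all tested genes 4.50% were called higher and 6.26% lower, and whether this list differs from them was not tested. Arhgef12, an exchange factor that activates RhoA, stood at 2629, 2785 and 4083 in WT and at 4895, 4644 and 5113 in Ahr-KO, a rise of 1.57-fold (limma adjusted p = 0.042). Rgs5, a regulator of G protein signalling found in pericytes and vascular smooth muscle, went from 246, 397 and 425 to 165, 121 and 146. Rgs5 fell 2.41-fold (limma adjusted p = 0.016). The RhoA relative Rhob fell 1.60-fold and the kinase Pak1 1.95-fold (limma adjusted p = 0.031 and 0.026). Arhgef12 no longer passed when quantile normalised (adjusted p = 0.063), when scaled to equal totals (0.059), with limma-voom (0.058), lacking the trend (0.10), or when any 1 library except WT library 2 was left out (up to 0.14). Leaving out Ahr-KO library 1 or 2 ended the calls of Rgs5, Pak1 and Rhob as well. So did leaving out WT library 1 for Rgs5, WT library 0 for Pak1 and each of these WT libraries for Rhob (adjusted p up to 0.070, 0.081 and 0.11 in that order). Rhob also failed when the trend was dropped (0.083) and with the library-number block (0.052).

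A further 47 smooth muscle genes and SRF targets gave 45 tested, 5 higher, 3 lower and 37 not past (median log2 0.04). The shares over all tested genes were 4.50% higher and 6.26% lower, and the list was not tested as a set. Itga8, the alpha-8 integrin of smooth muscle and myofibroblasts, stood at 4780.3, 3362 and 5111 in WT and at 2294, 2012 and 2189 in Ahr-KO. Itga8 fell 2.01-fold (limma adjusted p = 0.011). Itga7, a laminin-binding integrin of muscle, moved the other way, from 581 ± 38.3 to 916 ± 100.4 (SD, n = 3), a rise of 1.57-fold (limma adjusted p = 0.015). Pdlim2, of the same PDZ-LIM family as Pdlim3, rose 1.70-fold (limma adjusted p = 0.016). Without Ahr-KO library 2 the calls of Itga8 (adjusted p = 0.053), Itga7 (0.068) and Pdlim2 (0.071) were lost, that of Itga7 also without WT library 0 (0.051) and with the block (0.051), and that of Pdlim2 lacking the trend (0.051).

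Other cell types that could carry these transcripts were read from marker lists. Of 10 pericyte markers 0 were called by limma (2 at an unadjusted p under 0.05, 0 by limma-voom), with a summed value of 17680.2 to 22106 in WT and 19713 to 22667 in Ahr-KO. Rgs5, also found in pericytes, was not on this list and fell 2.41-fold, as given above. Fibroblast markers were called lower for 4 of 10, beside 6.26% of all tested genes. The calls of Col1a1 and Wnt2 held under all 15 alternative settings, and those of Pi16 and Col3a1 under 11 each. The sum of the 10 fibroblast markers was 49658 to 60041 in WT and 30798 to 38786 in Ahr-KO. The sum of 10 endothelial markers was 96323 to 99407 in WT and 117900 to 136448 in Ahr-KO, with 2 of them called higher and 1 lower. None of the 6 mesothelial markers was called by limma (3 at an unadjusted p under 0.05, 2 by limma-voom), and they summed to 2066 to 3478 and 1618 to 2577. No marker of these lists was at 0 in all libraries. The part of these cell types in the results above was not tested.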

How the data were processed

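Total lung RNA of 3 WT and 3 Ahr-KO samples was isolated by Trizol lysis and column purification and made into Illumina libraries, per the labels' protocols. FastQC and the build rn6 are named in the submitters' processing notes. No aligner, counter, annotation or strandedness is given in the sources used. Per gene symbol the authors deposited a normalised signal. Its values behaved as estimated reads divided by 1 factor per library: 96.4% to 97.9% of values above 0 were whole multiples of a recurring step, to within 0.05, and depth was the total divided by that step. As the rest were fractions, no count test was used. Columns show group but not sample, so library numbers are names only. Whether each sample is a separate animal is not stated, so the p-values reflect spread between samples that may be technical only. There were 0 unused columns.

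Values were taken as log2(value + 1), where folds of low genes are understated. They were tested with limma 3.58.1 (R 4.3.3, mean-variance trend) with genotype as the single term. The test was also run on simulated counts drawn independently for each gene and library. Those counts had no shift shared by the genes of a library, so that run does not cover such spread. Intervals are limma's 95% intervals. The genes, lists and tests were chosen with earlier results of these data known. All 35 genes were named, with up to 4 called genes of lowest p from each other list. A gene this rule picked is not reported here. Heart marker values and the ratios were chosen after seeing values. Beside the list results that follow, 10.8% of all tested genes were called. The results of other lists were: skeletal muscle, 0 higher and 1 lower of 17 tested; airway epithelium, 1 higher and 3 lower of 10; endothelium, 2 higher and 1 lower of 10; heart, 0 called of 16. Alternatives were quantile normalisation, equal library totals, no trend, robust limma, limma-voom on step-divided values, no filter, a minimum of 10, a pseudocount of 0.1, a library-number block, each library left out, and an adjusted p under 0.10.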

Additional observations from a re-analysis of the deposited data

How the results depend on the processing

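With 3 libraries a group, a change has to be large beside the library spread to pass. The number of genes called was 1655, and 952 with limma lacking the trend, 899 with the library number as a replicate block, 2853 at an adjusted p under 0.10, and 407 to 1834 when 1 library was left out (407 lacking Ahr-KO library 2, 529 lacking Ahr-KO library 1, 705 lacking WT library 0 and 871 lacking WT library 1). Members called higher numbered 2, and 1 (Synm) without the trend and with the replicate block (Pdlim3 at an adjusted p of 0.061), 5 at an adjusted p under 0.10 (adding Myh11, Myl9 and Lmod1), and 1 to 2 when 1 library was left out. Members called lower numbered 1, and 0 without the trend, and 0 to 1 when 1 library was left out. In the other settings with an adjusted p under 0.05, Synm, Pdlim3 and Filip1l were called and no other member was. The members' median difference lay between -0.06 and 0.14 over all settings. Same-numbered libraries deviated with correlations of -0.10, 0.07 and -0.07, and WT library 0 correlated best with Ahr-KO library 2, so the numbers were not treated as pairs.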
